A study of Mus musculus with 96 samples.

Results

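The cytosolic ribosomal protein genes encode the protein part of the large and small subunits of the ribosome that translates nuclear mRNAs. They were taken from the count table by symbol: Rps or Rpl followed by a number and at most one letter a, x or l, together with Rpl22l1, Rplp0, Rplp1, Rplp2 and Rpsa. The rule found 81 genes among 36935 symbols, 50 of the large and 31 of the small subunit. Levels were compared between libraries with oocyte-like RNA, defined by at least 100 CPM (counts of a gene per 1000000 counts of its library) of the meiotic kinase mRNA Mos, and libraries with 2-cell-like RNA, defined by less Mos and at least 1 count of the 2-cell transcript Zfp352. Neither Mos nor Zfp352 is a ribosomal protein gene, and the stage labels were not used to form these classes.

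The study sequenced polyadenylated RNA from single mouse oocytes arrested at metaphase II and from single blastomeres of 2-cell embryos in a line carrying the P620A variant of Padi6, a gene for a maternal-effect protein found in the fibrous lattices of the egg cytoplasm. The labels give 22 libraries each to wild-type oocytes (Padi6+/+), mutant oocytes (Padi6P620A/P620A), wild-type 2-cell blastomeres (Padi6+/+) and mutant 2-cell blastomeres, whose variant came from the mother (Padi6MatP620A/+), and 8 to negative controls. All oocyte donors were hormonally superovulated females of 4 to 8 weeks, fertilisation was done in vitro with sperm of males of 8 to 12 weeks, and cumulus cells were removed enzymatically. RNA was separated from DNA, captured on oligo-dT beads, copied by template switching and amplified by PCR; the protocols name no molecular identifiers. The labels name no animal and do not say which blastomeres came from the same embryo, so each class or label counted as 1 sample: levels are given as the lowest, median and highest library, and no test between groups was run. A level in CPM is a share of a library's counts, so the amount of RNA in a cell was not measured.

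Ribosomal proteins are made in near-equal numbers in growing cells, and most of their mRNAs begin with a 5′ terminal oligopyrimidine (TOP) tract through which mTOR signalling controls their translation. A fully grown mouse oocyte has ceased transcription and lives on stored mRNAs and ribosomes; many stored mRNAs are cleared after meiotic maturation and fertilisation, and the 2-cell embryo starts to transcribe its own genome, including genes for ribosome production. A few ribosomal proteins have a second gene, here marked by an l or l1 at the end of the symbol, whose product can take the place of its partner in some tissues.

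Of the 96 libraries, 79 held at least 100000 counts and at least 4000 detected genes; they ranged from 162539 to 5762563 counts, with a median of 2149471. The Mos and the Zfp352 class held 39 libraries each, and 1 library labelled mutant 2-cell (number 86) fell in neither. The classes did not follow the stage labels but ran in blocks of library number. The kept libraries 2 to 8, 25 to 48, 73 to 83 and number 88 were in the Zfp352 class. Those from 9 to 24, from 49 to 63 and from 84 to 96, other than 86 and 88, were in the Mos class. The part of library order in the results was not tested. Of the kept libraries labelled wild-type oocyte, 12 were in the Mos class and 7 in the Zfp352 class; all 19 labelled mutant oocyte were in the Zfp352 class; all 14 labelled wild-type 2-cell were in the Mos class; those labelled mutant 2-cell were split 9 and 11; and 6 libraries labelled negative control split 4 and 2. With Zfp352 left out, as it defines the class, all 8 of the other 2-cell markers were at least 2-fold higher in the Zfp352 class, where their summed level was 0.00397% to 0.362% of counts, against 0% to 0.00228% in the Mos class. With Mos left out, 7 of 10 oocyte markers were at least 2-fold lower in the Zfp352 class and 0 higher. Padi6 itself had a median of 4547 CPM in the Mos class and 196 CPM in the Zfp352 class.

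The classes also differed in markers of somatic cells. The summed level of 20 genes that mark cumulus and granulosa cells, which surround the oocyte in its follicle, ran from 0.00744% to 1.06% of counts in the Mos class (median 0.0491%) and from 0% to 0.0229% in the Zfp352 class (median 0.00716%). In the Zfp352 class 15 of the 20 had a count, and Ptx3, Hsd17b1, Inhbb, Foxl2 and Thbs1 were at 0; in the Mos class all 20 had a count. The counts of ribosomal protein genes are therefore given for all 39 Mos-class libraries, for the 28 with cumulus markers under 0.1%, called marker-poor, and for the 14 whose cumulus markers lay within the Zfp352-class range; other values name the set they use. Of the 20, the 4 with the largest class ratios were also looked at singly. Hsd3b1, Krt18 and Cyp11a1 went with the summed markers in the Mos class (Spearman rho 0.94, 0.82 and 0.90). Cyp19a1 did not (-0.36). It had a median of 61.7 CPM in the Mos class and 80.6 CPM in those 14 libraries, against 0.421 CPM in library 86. The whole sum had a median of 0.0155% of counts in the 14, so much of it was Cyp19a1. The part of these markers in the results was not tested beyond such values.

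The 81 genes together made up a small and uneven share of the RNA. In the Mos class their summed level ran from 0.0915% to 6.94% of counts with a median of 0.358%, and in the Zfp352 class from 0.153% to 1.21% with a median of 0.453%. The Zfp352-class libraries all lay inside the range of the Mos class, and the log2 ratio of the medians was 0.34. The 11 Mos-class libraries with cumulus markers of at least 0.1% lay between 0.839% and 6.94% (median 2.28%), whereas the 28 under 0.1% lay between 0.0915% and 1.67% (median 0.247%). In the 14 Mos-class libraries within the marker range of the Zfp352 class, the sum ran from 0.0915% to 0.358%, with a median of 0.194%. The median of the Zfp352 class was thus above the highest of those 14 libraries, and the log2 ratio against them was 1.22. When counts were pooled over libraries, which gives the libraries with the most ribosomal protein RNA the most weight, the log2 ratio was -1.19.

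**Figure D1:**
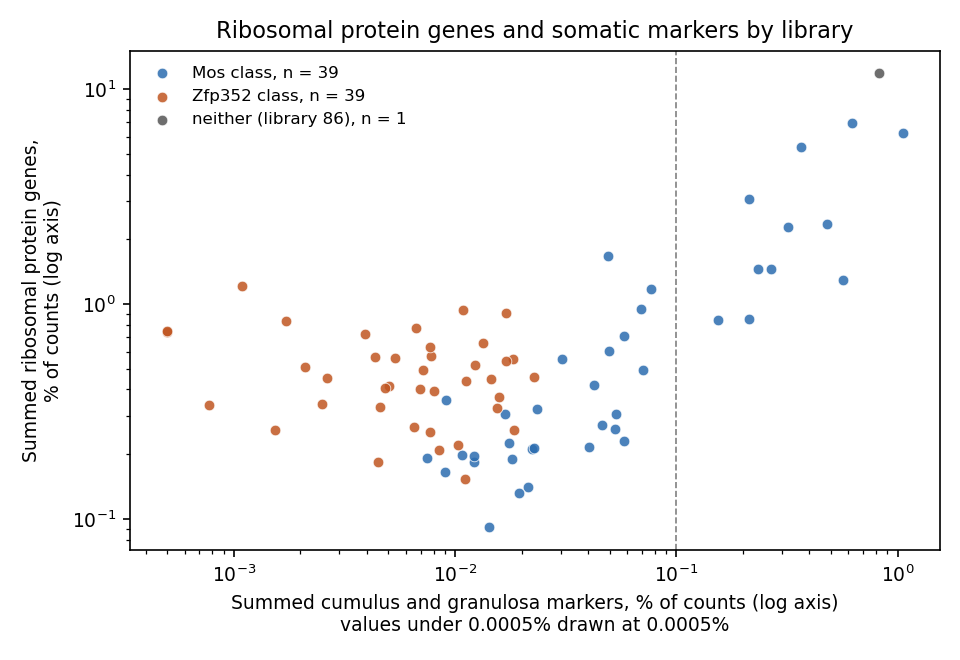
Each point is 1 library; the horizontal axis gives the summed cumulus and granulosa markers and the vertical axis the summed ribosomal protein genes, both in percent of counts on log axes, with the dashed line at 0.1%. Mos-class libraries climb with the markers from 0.0915% to 6.94%, and Zfp352-class libraries form a cloud between 0.153% and 1.21% with no such slope.

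Within the Mos class, the summed level went with the cumulus markers with a Spearman rho of 0.87 over 39 libraries, and with a rho of 0.70 over the 28 libraries under 0.1%; the points share the library total as their denominator. Within the Zfp352 class that rho was -0.14. Gene by gene, the rho with the cumulus markers in the Mos class had a median of 0.84 over 80 genes and was at least 0.7 for 73 of them. Only Rps15a (0.41), Rpl17 (0.31), Rpl39l (0.05), Rpl10l (0.03) and Rps27l (0.02) were under 0.5. Of those, Rpl39l, Rpl10l and Rps27l are the second genes of pairs, and their partners Rpl39 (0.77), Rpl10 (0.91) and Rps27 (0.85) went with the markers. Rps15a encodes a small subunit protein and Rpl17 a protein near the exit tunnel of the large subunit.

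For a comparison gene by gene, a gene counted as measured with a median of at least 10 CPM in at least 1 class, and as higher or lower when the ratio of the class medians, each with 1 CPM added, was at least 2-fold. Against all Mos-class libraries, 4 of 75 measured ribosomal protein genes were higher in the Zfp352 class, where 17.4% of all 8202 measured genes were, and 18 were lower, where 36% of all genes were. Their median log2 ratio was -0.38, beside -0.36 for all genes. Against the Mos-class libraries under 0.1% cumulus markers, 17 of 71 were higher (18.8% of all genes) and 7 were lower (35.2% of all genes), with a median of 0.35 beside -0.31 for all genes. Within the shared marker range, 36 of 70 were higher (20.1% of all genes) and 3 were lower (35.4% of all genes), with a median of 1.01, again beside -0.31. As cumulus markers were matched more closely, the ribosomal protein genes thus went from fewer higher calls than the background to more, while the median of all genes went from -0.36 to -0.31. Without the 6 libraries labelled negative control, 5 of 76 ribosomal protein genes were higher and 21 lower against all Mos-class libraries. Among all 8259 genes, 1409 were then higher and 3061 lower. With every library thinned to 100000 counts, 4 of 79 ribosomal protein genes were higher and 25 lower, beside 1462 and 3638 of all 8987 genes.

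**Figure D2:**
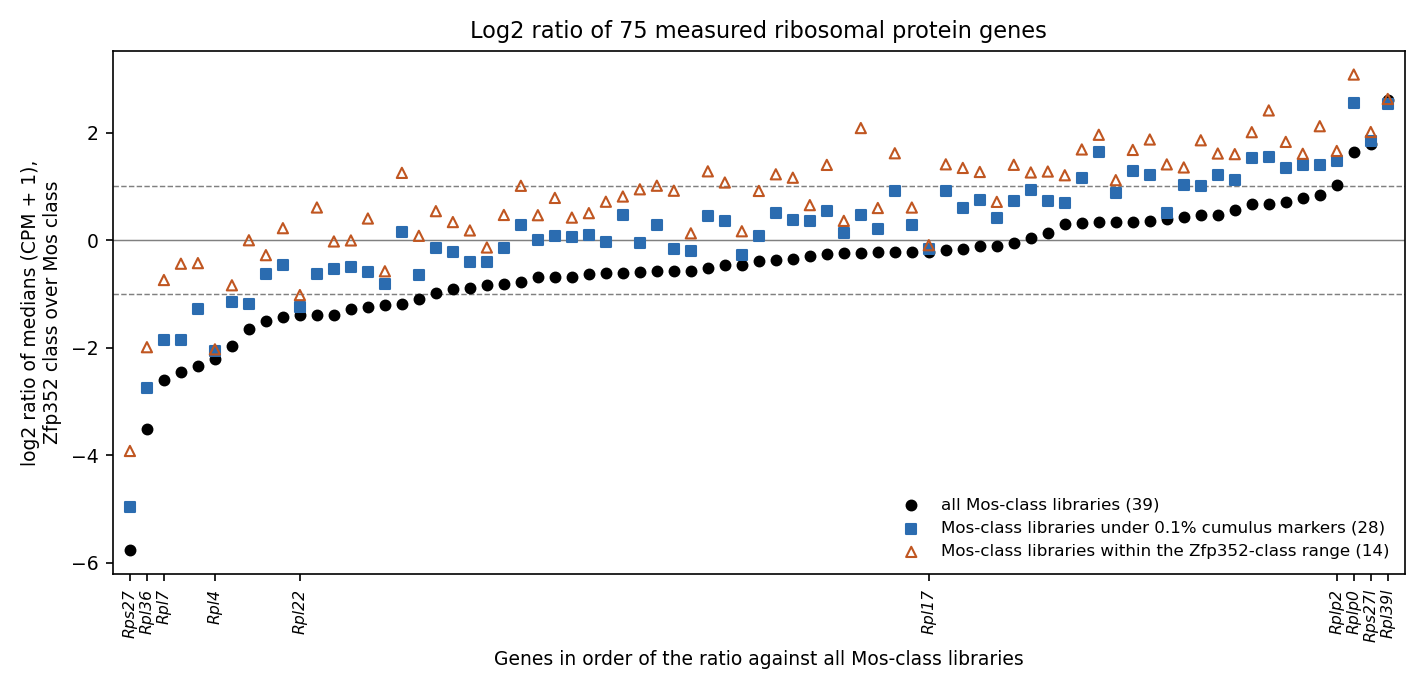
The log2 ratio of class medians (Zfp352 class over Mos class, CPM + 1) for the 75 measured genes in order of the ratio against all Mos-class libraries; squares use the 28 Mos-class libraries under 0.1% cumulus markers and triangles the 14 within the Zfp352-class range, dashed lines mark 2-fold, and 10 genes named in the text are labelled. Most genes shift upward from dot to triangle, while Rps27l, Rpl39l, Rpl4 and Rpl17 keep nearly the same ratio in the 3 sets.

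The calls that held in all 3 sets were few. Rplp0, Rplp2, Rps27l and Rpl39l were at least 2-fold higher in the Zfp352 class and Rps27, Rpl4 and Rpl22 at least 2-fold lower in each. The subunits did not separate: against all Mos-class libraries the large-subunit genes had a median log2 ratio of -0.46 (3 higher and 10 lower of 44) and the small-subunit genes -0.36 (1 higher and 8 lower of 31), and under 0.1% cumulus markers the medians were 0.35 and 0.24. A further 6 genes stayed under 10 CPM in both classes: Rpl29, Rpl35a, Rpl39, Rpl3l, Rpl23a and Rpl10l.

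The starts of the genes with the steadiest calls are shown because a TOP tract is the sequence feature best known to be shared by ribosomal protein mRNAs. The lines give 30 bases of GRCm38.p6 from RefSeq, 15 before and 15 from the first annotated transcribed base onward, 5′ to 3′ on the strand of the gene; capitals mark each C followed by at least 4 bases that are C or T, in this direction only. The pairs come first, then the genes called higher and lower in every set.
Rps27: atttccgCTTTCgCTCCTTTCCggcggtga
Rps27l: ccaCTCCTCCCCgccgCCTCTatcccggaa
Rpl39: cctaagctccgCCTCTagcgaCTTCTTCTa
Rpl39l: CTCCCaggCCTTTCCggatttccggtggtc
Rplp0: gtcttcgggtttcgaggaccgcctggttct
Rplp2: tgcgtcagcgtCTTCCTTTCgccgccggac
Rpl4: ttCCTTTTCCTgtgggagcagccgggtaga
Rpl22: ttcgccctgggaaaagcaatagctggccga
Their positions are chr3:90213634-90213663 on the minus strand, chr9:66946071-66946100 on the plus strand (the first of 2 starts in the table), chrX:37085208-37085237 (minus), chr16:10170213-10170242 (plus), chr5:115559452-115559481 (plus), chr7:141447636-141447665 (plus), chr9:64173372-64173401 (plus) and chr4:152325711-152325740 (plus, the first of 2 starts).

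Of the 81 genes, 61 had a start in this table, and 42 of them (68.9%) held such a tract in the 30-base window at 1 start or more, against 40.3% of 27025 genes. In the windows shown, higher-called genes Rps27l, Rpl39l and Rplp2 held one, as did lower-called Rps27 and Rpl4. Higher-called Rplp0 and lower-called Rpl22 held none. In Rpl39l and Rpl4 every marked run lay wholly before the first annotated transcribed base, so outside the annotated mRNA. The counts given here include such runs. Of the genes with a start that were higher against the marker-poor Mos-class libraries, 9 of 12 held a tract, and of those that were lower, 4 of 5. A match is a string of letters at an annotated start, which need not be the start used in these cells.

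The sharpest contrast was between Rps27 and its second gene Rps27l, which encode near-identical zinc-finger proteins of the small subunit; Rps27l is also known as a p53 target gene. Rps27 ranged from 2.61 to 2308 CPM in the Mos class (median 53.8), from 2.61 to 371 CPM in its libraries under 0.1% cumulus markers (median 30.3), and from 0 to 28.4 CPM in the Zfp352 class, where 24 of 39 libraries had no count and the median was 0. All 39 Zfp352-class libraries lay below the median of the marker-poor Mos-class libraries. Because a median of 0 gives a ratio that rests on the 1 CPM added, pooled levels are also given, with 95% exact Poisson intervals that cover counting error only. They were 188 CPM in the Mos class (186 to 191), 58.4 CPM in its marker-poor libraries (56.8 to 60.1) and 17.2 CPM in those within the Zfp352-class marker range (16.0 to 18.5), against 2.28 CPM in the Zfp352 class (1.93 to 2.68). The gap thus narrowed as the marker-rich libraries were left out, and the median of the 14 libraries within the shared range was 14.2 CPM (2.61 to 48.0).

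Rps27l went the other way. It ranged from 92.3 to 1115 CPM in the Mos class (median 272), with a median of 263 CPM in the libraries under 0.1% cumulus markers, and from 532 to 1605 CPM in the Zfp352 class (median 949). Of the 39 Zfp352-class libraries, 30 lay above every marker-poor Mos-class library, and the log2 ratio was 1.80 against all Mos-class libraries, 1.85 against the marker-poor ones and 2.01 within the shared marker range. Rps27l held a median of 5.88% of all ribosomal protein counts in the Mos class and 20.3% in the Zfp352 class, with up to 49.1% in a single library. Per kilobase of exon its median was 1163 CPM against 0 for Rps27 in the Zfp352 class, and 322 against 29.0 in the marker-poor Mos-class libraries.

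As a share of the counts of the pair, Rps27l made up a median of 84.3% in the Mos class (26.0% to 99.3%), 91.2% in its libraries under 0.1% cumulus markers and 94.6% in those within the Zfp352-class marker range. In the Zfp352 class its share was never below 97.6%, and the median was 100%. The classes overlapped at the top: 2 Mos-class libraries labelled mutant 2-cell, numbers 93 (97.8%) and 92 (99.3%), lay within the Zfp352-class range. Library 86, which had 0.826% cumulus markers, 8 of 11 oocyte markers at 0 and no 2-cell marker, had a share of 16.9%. Reads of Rps27 and its retrocopy Rps27rt could be exchanged in counting; Rps27rt had a median of 1.43 CPM in the Mos class and no count in the Zfp352 class.

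**Figure D3:**
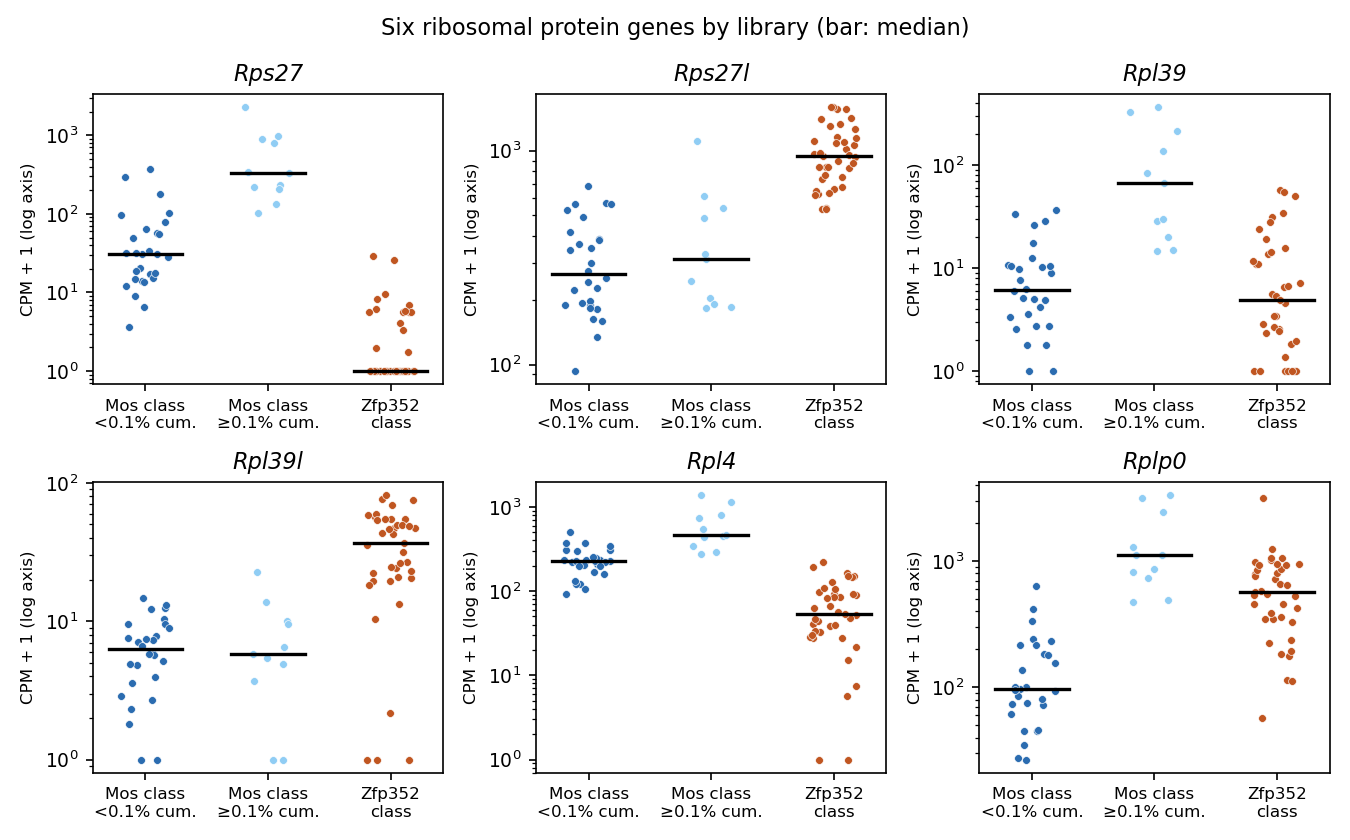
CPM + 1 on a log axis for 6 genes, with 1 point per library and a bar at the median, for Mos-class libraries under and at or above 0.1% cumulus markers and for the Zfp352 class. Rps27 and Rpl4 sit lower and Rps27l and Rpl39l higher in the Zfp352 class than in either Mos-class set, whereas Rplp0 in the Zfp352 class (median 569 CPM) lies between the 2 Mos-class sets.

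The large subunit has a parallel pair. Rpl39 lines the exit tunnel for the growing peptide, and Rpl39l is its second gene, best known from male germ cells. Rpl39l ranged from 0 to 21.8 CPM in the Mos class (median 5.03) and from 0 to 80.4 CPM in the Zfp352 class (median 35.6); 27 of 39 Zfp352-class libraries were above the highest Mos-class library, and 3 had no count. The log2 ratio was 2.60 against all Mos-class libraries, 2.53 against those under 0.1% cumulus markers and 2.63 within the shared marker range. Rpl39 had medians of 9.51 CPM in the Mos class, 5.17 in its marker-poor libraries and 3.93 in the Zfp352 class, with overlapping ranges. The share of Rpl39l in the counts of the pair had a median of 31.0% in the Mos class, 48.1% under 0.1% cumulus markers, 71.1% within the Zfp352-class marker range and 87.9% in the Zfp352 class. The Zfp352-class share ranged from 20% to 100%, and the classes overlapped.

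**Figure D4:**
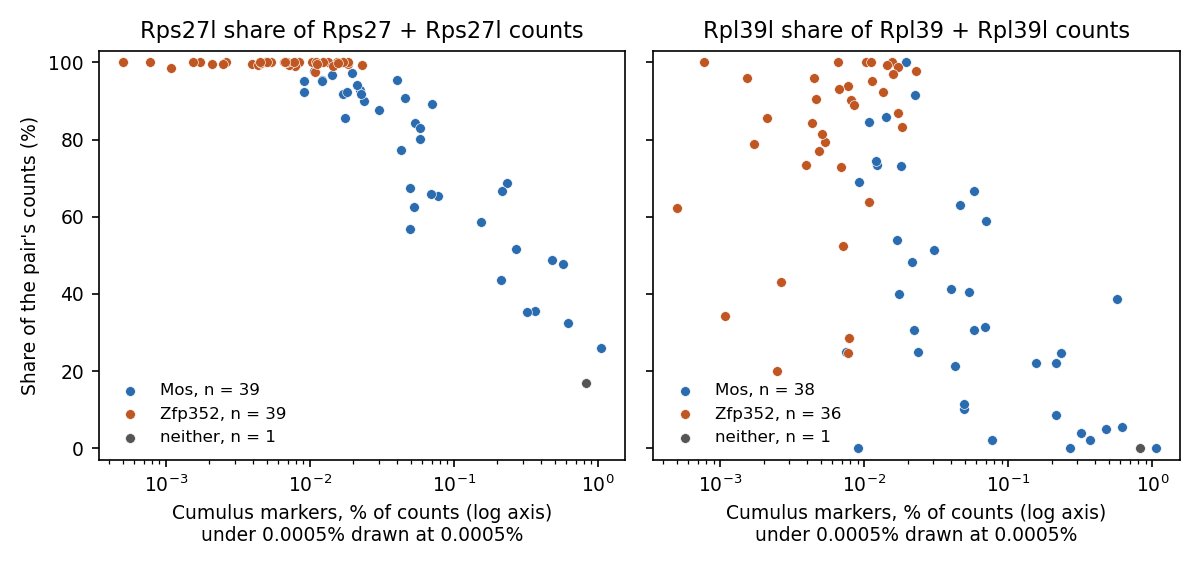
Share of the counts of each pair that fell on Rps27l (left) and on Rpl39l (right), in percent, against the summed cumulus markers in percent of counts on a log axis, with 1 point per library that had a count of the pair. In the Mos class both shares decline as the markers climb; the Rps27l share stays at or above 97.6% in the Zfp352 class, and the Rpl39l share spreads from 20% to 100%.

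The other 3 pairs were low or mixed. Rpl10 joins the large subunit late in its assembly, and Rpl10l is an autosomal retrocopy that serves in its place in meiotic male germ cells; Rpl10l had medians of 2.60 CPM in the Mos class and 7.38 in the Zfp352 class, with single libraries up to 139 CPM, and its share of the pair went from 4.05% to 18.3%. Rpl22l1, the second gene of Rpl22, had medians of 10.7 CPM in the Mos class and 1.13 in the Zfp352 class. Its median share of the pair was 50% in the Mos class, 13.7% in the Mos-class libraries within the Zfp352-class marker range and 21.1% in the Zfp352 class. Rpl3l, the striated-muscle form of Rpl3, had 0 counts in the Mos class, which allows a pooled level of up to 0.0268 CPM (3 counts over the class), and a count in 5 of 39 Zfp352-class libraries.

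The stalk of the large subunit, which recruits the translation factors that hydrolyse GTP, is built from Rplp0 at its base and from Rplp1 and Rplp2. Rplp0 ranged from 25.9 to 3332 CPM in the Mos class (median 181), from 25.9 to 640 CPM in its marker-poor libraries (median 95.8), and from 56.2 to 3189 CPM in the Zfp352 class (median 569). The groups overlapped, but 38 of 39 Zfp352-class libraries were above the marker-poor median; the log2 ratio was 1.65 against all Mos-class libraries, 2.56 against the marker-poor ones, and 0.24 between pooled levels. Rplp2 had medians of 75.0, 54.9 and 153 CPM in the same order, and its log2 ratio of 1.02 sat just above 2-fold and came to 0.80 with TMM scaling. Rplp1 was not higher: its medians were 86.1, 53.5 and 48.2 CPM. Rpsa, the laminin-receptor-like protein of the small subunit, had medians of 65.3, 48.7 and 43.6 CPM.

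Rpl4, a large-subunit protein that reaches into the exit tunnel, was lower in the Zfp352 class in every set. It ranged from 92.3 to 1373 CPM in the Mos class (median 249), from 92.3 to 501 CPM in the marker-poor libraries (median 225), and from 0 to 218 CPM in the Zfp352 class (median 53.1). All 39 Zfp352-class libraries were below the marker-poor median, and the log2 ratio lay between -2.21 and -2.03 over the 3 sets. Its median share of all ribosomal protein counts was 5.99% in the Mos class and 1.37% in the Zfp352 class. Rpl22, an RNA-binding protein needed for T cell development, had medians of 15.8, 14.1 and 5.36 CPM and a log2 ratio of -1.40 against all Mos-class libraries.

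Several other low calls weakened as cumulus markers were matched. Rpl36 (log2 ratio -3.52), Rpl7 (-2.59), Rps4x (-1.98), the X-linked form of Rps4, and Rps18 (-1.65) were also at least 2-fold lower against the marker-poor libraries, at -2.75, -1.86, -1.15 and -1.20. Within the shared marker range Rpl7, Rps4x and Rps18 were at -0.74, -0.84 and 0.00, and Rpl36 at -1.99 on medians under 10 CPM. Rpl22l1, Rpl38 and Rpl36a were lower against all Mos-class libraries (-2.46, -2.35 and -1.43) but were under 10 CPM in the marker-poor set. Rps20 (-1.50) was at -0.62 there.

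In the opposite direction, 13 genes were under 2-fold against all Mos-class libraries and at least 2-fold higher against the marker-poor ones, among them Rpl8, Rpl28, Rpl30, Rpl41, Rps2, Rps13 and Rps24. The largest of these was Rps24, with medians of 34.4 CPM in the Mos class, 13.3 in its marker-poor libraries and 43.5 in the Zfp352 class. Rps2, a protein of the mRNA entry channel, had medians of 61.6, 41.4 and 111 CPM in the same order. The Zfp352-class ranges of these 13 overlapped the marker-poor Mos-class ranges in every case.

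Within the Zfp352 class the summed level did not go with the cumulus markers but did go with Zfp352 itself, with a rho of 0.62 over 39 libraries. A count of Zfp352 also defines this class, so the rho describes the class and is no separate support for it. The 39 include 2 libraries labelled negative control, with 9.29 and 2.25 CPM of Zfp352 and sums of 0.267% and 0.153%. These 2 are not in the label medians below. Gene by gene the rho with Zfp352 had a median of 0.46 over 80 genes, was at least 0.5 for 36, and was highest for Rpl24 at 0.79, a large-subunit protein that also forms a bridge to the small subunit. Rps27l (0.16) and Rpl39l (0.04) were near the low end. Zfp352 had medians of 75.8 CPM in the Zfp352-class libraries labelled mutant oocyte, 244 in those labelled wild-type oocyte and 360 in those labelled mutant 2-cell. The summed ribosomal protein level had medians in the same order: 0.393% (0.183% to 0.769%, 19 libraries), 0.492% (0.342% to 0.555%, 7 libraries) and 0.658% (0.338% to 1.21%, 11 libraries). The ranges overlapped, and cumulus markers were low in all 3, with medians of 0.00806%, 0.00694% and 0.00485%.

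**Figure D5:**
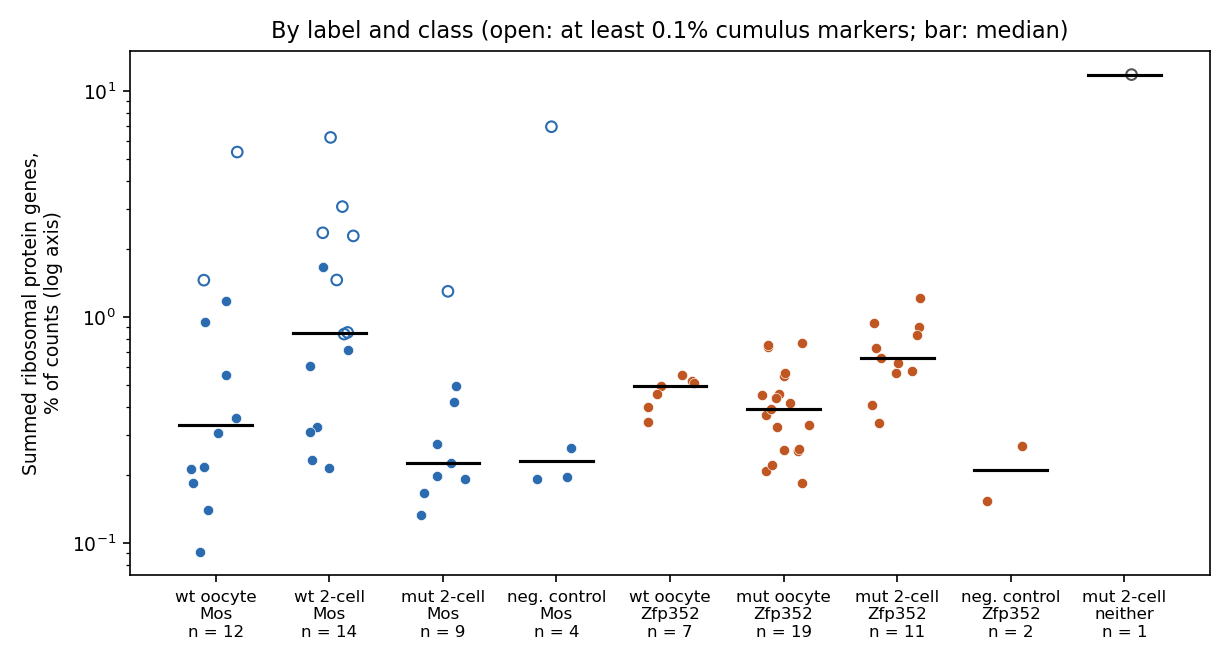
Summed ribosomal protein genes in percent of counts (log axis) by label and class, with 1 point per library, a bar at the median and open circles for libraries with at least 0.1% cumulus markers. The high values of the Mos class are open circles but for a few, and in the Zfp352 class the libraries labelled mutant 2-cell (median 0.658%) sit above those labelled mutant oocyte (median 0.393%) with overlap.

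Among Zfp352-class libraries, those labelled mutant 2-cell had 46 of 72 measured ribosomal protein genes at least 2-fold above those labelled mutant oocyte, where 23% of all genes were, and 0 at least 2-fold below, where 14.8% of all genes were. The median log2 ratio was 1.23 beside 0.14 for all genes, and leaving out each library in turn gave 40 to 50 higher and 0 lower. Rpl10l had the largest ratio (4.32), from a median of 0.657 CPM (0 to 61.7) to 32.2 CPM (0 to 139). Rpl41, which encodes the smallest ribosomal protein, followed at 3.41: it ranged from 8.99 to 294 CPM with a median of 37.0 under the label mutant oocyte, and from 96.6 to 669 CPM with a median of 401 under the label mutant 2-cell. Rpl10a (2.51), Rpl24 (2.44), Rpl39 (2.41) and Rps15 (2.31) came next, of which Rpl39 also had a median under 10 CPM under the label mutant oocyte. Rps27l (0.16) was nearly level, with medians of 954 and 1067 CPM, and Rpl39l (-0.81) was lower, with medians of 45.6 and 25.6 CPM.

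The labels mutant and wild-type oocyte could be set side by side within the Zfp352 class, with 19 and 7 libraries. There 1 of 67 measured genes, Rpl39l, was at least 2-fold higher in the libraries labelled mutant (16.6% of all genes), with medians of 45.6 and 19.8 CPM, and 17 were at least 2-fold lower (18.8% of all genes). The median log2 ratio was -0.52, beside -0.09 for all genes. Rpl10l (-3.68) and Rpl41 (-2.87) had the largest differences. The median of Rpl10l was under 10 CPM in the libraries labelled mutant, so its ratio leans on the 1 CPM added. Rpl41 ranged from 175 to 491 CPM in the 7 libraries labelled wild-type and from 8.99 to 294 CPM in the 19 labelled mutant, so the ranges overlapped while the medians were 276 and 37.0 CPM. Rps2 (-2.04), Rps4x (-1.86) and Rps28 (-1.77) followed. All 26 libraries carry an oocyte label together with Zfp352, and Zfp352 itself differed between the labels (medians of 75.8 and 244 CPM); its part in these differences was not tested.

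In the Mos class, libraries labelled wild-type 2-cell had 67 of 78 measured genes at least 2-fold above those labelled wild-type oocyte (15.8% of all genes) and 0 below (1.7% of all genes). Cumulus markers had medians of 0.106% in the 14 libraries labelled wild-type 2-cell and 0.0263% in the 12 labelled wild-type oocyte. With libraries under 0.1% alone, 7 against 10, the count was 19 of 71 higher (7.04% of all genes) and 0 lower (1.92% of all genes), with Rps3 (1.79), Rps26 (1.78) and Rpsa (1.78) at the top. Rps27l (-0.68) and Rps15a (-0.42) were furthest to the other side among all these libraries, with Rps27l medians of 358 CPM for the oocyte label and 224 CPM for the 2-cell label.

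The Mos-class libraries labelled mutant 2-cell stood below those labelled wild-type 2-cell in a like manner. Among all of them, 0 of 78 genes were higher (1.39% of all genes) and 73 were lower (15.6% of all genes), with cumulus marker medians of 0.0195% and 0.106%; under 0.1% alone, 8 against 7 libraries, 0 of 71 were higher (1.87% of all genes) and 28 were lower (6.53% of all genes). Both of these comparisons use the libraries labelled wild-type 2-cell. The largest differences under 0.1% were Rpl28 (-2.30), Rpl10a (-2.29), Rps3 (-2.27) and Rpsa (-2.14), while Rps27l was at 0.78. Even under 0.1% the cumulus marker medians were 0.0185% for the label mutant 2-cell and 0.0495% for wild-type 2-cell, and their part in the difference was not tested.

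By label alone, which mixes the classes, the mutant and wild-type oocyte labels differed by a log2 ratio of -0.21 in summed level and the 2-cell labels by -0.59. With the oocyte labels, 1 of 68 genes was at least 2-fold higher (14.7% of all genes) and 15 were lower (28.8% of all genes), with Rps27 lowest at -3.91 and Rpl39l highest at 2.63. With the 2-cell labels, 2 of 79 genes were higher (5.38% of all genes), Rpl39l (1.87) and Rps27l (1.38), and 57 were lower (26.2% of all genes). The wild-type oocyte label held 12 Mos-class and 7 Zfp352-class libraries against 0 and 19 for the mutant, and the wild-type 2-cell label held 14 and 0 against 9 and 11, so genotype label and class cannot be told apart in these numbers.

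Other genes of the ribosome pathway were described from lists. Of the cytosolic ribosomal proteins whose symbols fall outside the rule, 5 were measured: Rack1, a signalling scaffold on the small subunit, had medians of 254 and 51.2 CPM in the Mos and Zfp352 class (log2 ratio -2.29, and -2.09 against marker-poor libraries), and Rps3a1, Fau and Rpl36al were under 2-fold. Of 22 other measured genes with known TOP starts, 3 were higher and 7 lower, and 4 and 4 of 21 against the marker-poor libraries. Subunits of initiation factor 3 led the low side, Eif3m with medians of 141 and 0 CPM and Eif3e with 58.7 and 0 CPM. The log2 ratio of Eif3m was -7.15 against all and -7.14 against marker-poor Mos-class libraries. Vim, on this list though not a gene of the translation machinery, had medians of 13.5 and 0 CPM (-3.85). In the Mos class Vim went with the cumulus markers (rho 0.89). Of 24 translation factors without a classical TOP start, 4 were higher and 8 lower (4 and 6 of 23 against the marker-poor libraries); Eif6, which keeps immature large subunits from joining small ones, had medians of 34.8 and 187 CPM (2.39, and 2.60 against the marker-poor libraries). Among 13 measured genes of TOP and mTOR control 0 were higher and 5 lower (1 and 4 of 12 against the marker-poor libraries), including Mtor (-1.74), its partner Rptor (-1.86) and the RNA-binding protein Cnbp (1043 and 123 CPM, -3.07).

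Genes that build the ribosome lay on both sides. Ratios to a median of 0 in the Zfp352 class, as for Eif3m, Eif3e, Rrp12, Taf1b and Gnl2, rest on the 1 CPM added. Of 30 measured nucleolar and RNA polymerase I genes, 9 were higher and 11 lower (9 and 10 of 29 against the marker-poor libraries), with Utp4 (-6.15), Rrp12 (-4.77) and Taf1b (-4.69) low and Rrp9 (3.15) high. Of 26 genes for import and assembly of ribosomal proteins, 4 were higher and 11 lower (4 and 8 of 25 against the marker-poor libraries), from Gnl2 (-5.64), a large-subunit assembly GTPase, to the assembly factor Znhit3 (4.09). Mitochondrial ribosomal proteins, made from nuclear genes, split 8 higher and 19 lower of 56, with a median of 0.08, and 13 and 17 of 53 against the marker-poor libraries, with a median of 0.30. All 11 measured mitochondrially encoded genes were higher in both sets, with medians of 2.27 and 2.40. With these left out of the library totals, the ribosomal protein genes again gave 4 higher and 18 lower of 75. Among all 8228 genes, 1484 were then higher and 2917 lower. The background for the list counts was 17.4% higher and 36% lower against all Mos-class libraries, and 18.8% and 35.2% against the marker-poor ones.

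Library 86 had next to no oocyte RNA. Labelled mutant 2-cell, it held 2374644 counts, 11.8% of them on ribosomal protein genes. Rpl41 (4695 CPM), Rplp0 (4291 CPM) and Rplp1 (4121 CPM) were high there, Rps27 stood at 2886 CPM against 585 CPM for Rps27l, and Rpl3l, Rpl10l and Rpl39l had no count. Its Mos and Zfp352 were at 0 and its oocyte markers summed to 0.00122% of counts, against 0.407% to 6.54% in the Mos class.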

How the data were processed

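The deposited table holds raw counts per gene and library, with no normalization by the authors; per the submitters' processing notes, Trim Galore 0.4.4, HISAT2 2.1.0, DESeq2 and GRCm39 were used, and the counting tool and its treatment of reads shared with pseudogenes are not given in the sources used here. Among 36983 entries, 48 repeated a symbol and were summed. Libraries with at least 100000 counts and 4000 detected genes were kept (79 of 96). Counts were scaled to CPM, classes were compared by medians over libraries on a log2(CPM + 1) scale, and genes were called at 2-fold among those with at least 10 CPM. Labels name no animal, so no test between groups was run; single libraries were checked for outliers with Dixon's critical values. Intervals are exact Poisson at 95%. Libraries were grouped by label or by Mos and Zfp352. Named genes were the 10 highest and 10 lowest measured members, all pairs, the stalk proteins and Rpsa, and 4 genes per list; 13 lists were used. Members shown by label (Rpl41, Rps24 and others outside this rule) were named after their values were seen; some genes are not reported here. The members and lists were chosen with earlier results of these data known. Lists of sperm and blood markers had 0 measured genes. The calculation was tested on simulated data. Alternatives were run with edgeR 4.0.16 (TMM) and DESeq2 1.42.0 (size factors) in R 4.3.3; other steps used Python 3.11.15, pandas 2.3.3 and scipy 1.17.1. Start sequences were matched by symbol to RefSeq starts of GRCm38.p6, an earlier build than that of the counts; exon lengths came from GENCODE vM21, also of that build.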

Additional observations from a re-analysis of the deposited data

Results flagged for a closer look

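One library labelled negative control (number 23) lay far above the other 5 kept libraries with that label, by a gap that passed the critical share of the range for 6 libraries (0.625). Its ribosomal protein genes summed to 6.94% of counts, where the next was at 0.267%; Rps27 stood at 2308 CPM (next 55.4), Rplp0 at 2455 CPM (next 185) and Rpl4 at 1152 CPM (next 234). The same library had 0.620% cumulus markers, 917212 counts and 476 CPM of Mos. Rps27l (1115 CPM, next 841) and Rpl39l did not stand apart there. Chance alone flags about 1 in 20 groups for a single measure; here 6 measures of the same libraries were looked at, at both ends, and all 4 values above come from 1 library.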

How the results depend on the processing

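The choice of Mos-class libraries decided most counts. The 4 higher and 18 lower calls became 17 and 7 without libraries over 0.1% cumulus markers, and 36 and 3 within the Zfp352-class marker range, a set chosen after seeing the data; the median log2 ratio of -0.38 became 0.35 and 1.01, and the ratio of summed levels of 0.34 became 0.87 and 1.22. The 2-cell labels went from -0.59 to 0.60 and 1.40, and the oocyte labels from -0.21 to -0.03 and 0.14. Pooled levels gave 63 of 80 ribosomal protein genes lower, beside 2614 of all 10024 genes. Their median was -1.73, the sum -1.19 and the oocyte labels -1.11. Means over libraries gave 63 of 80 lower, beside 2648 of all 10035 genes, and -1.70, -1.15 and -0.85 in the same order. With DESeq2 size factors 28 of 76 were lower and 3 higher, beside 3574 lower and 937 higher of all 8229 genes. With TMM 26 of 77 were lower and 3 higher, beside 3389 lower and 1131 higher of all 8328 genes. The median of all genes went from -0.36 to -0.73 with DESeq2 and -0.59 with TMM. Rpl36a and Rpl39 turned to 0.22 and 0.51 within the shared marker range. Without the negative control labels the summed ratio was 0.12, and with at least 500000 counts 0.11. The cause was not tested for any of these.

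Leaving out each of the 79 libraries gave 4 higher throughout, 18 to 22 lower, medians of -0.55 to -0.36, sums of 0.22 to 0.41, oocyte labels of -0.27 to -0.12 and 2-cell labels of -0.68 to -0.57. Of 532 values of 28 named genes under alternatives, 510 moved by less than 1 SD, 20 moved by more and 2 were reversed. A value within 1 SD could still lose its call. Rpl7 (-2.59) and Rps18 (-1.65) counted as within 1 SD throughout, yet came to -0.74 and -0.003 within the shared marker range. Of the 28 genes, 7 kept the same side of 2-fold in every alternative, among them Rpl3l, which had no call. By ratio, Rps27, Rpl36, Rpl4 and Rpl22 stayed at least 2-fold lower in each of 17 settings and in the leave-one-out extremes. Rps27l and Rpl39l stayed at least 2-fold higher in all of these. Within the shared marker range Rpl36 had medians under 10 CPM, so its ratio there is not a call. Rplp2 lost its call in 7 settings, and Rplp0 in the pooled and mean ones (0.24 and 0.35). Adding 8 pseudogene entries (5177 counts) gave 3 higher and 18 lower of 75, beside 1426 higher and 2956 lower of all 8202 genes. No paired analysis was possible because the labels name no animal and do not say which blastomeres came from the same embryo. Counts near 1 CPM rest on few reads, so no call was made where both medians were under 10 CPM. A gene with only 1 median of at least 10 CPM was still called. Where its other median was near 0, as for Rps27, the ratio leans on the 1 CPM added.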

Other observations

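The 17 libraries that did not pass the filters were in no comparison. Their summed ribosomal protein level ran from 0% to 8.69% of counts. Of these, 3 with more than 100000 counts but under 4000 detected genes were high: libraries 13 (8.69%, labelled wild-type oocyte), 58 (8.57%) and 64 (4.94%), both labelled wild-type 2-cell. The 2 remaining libraries labelled negative control held 1857 and 542 counts, of which 0 and 1 fell on ribosomal protein genes.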
